A study of Mus musculus with 6 samples.

Results

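The natriuretic peptide genes Nppb and Nppa stand side by side on mouse chromosome 4, and the noncoding transcripts listed around them are described here in left atria that overexpress FOG2. The features were the rows of the authors' deposited table that overlap the body of Nppb or Nppa in the GENCODE M21 annotation (mm10 build). Features that overlap no protein-coding gene and have one of these as the nearest protein-coding start within 100 kb were added. There were 17 such features among 34518 in the table. Left atria were taken from adult mice of the outbred CD1 stock, and 3 libraries came from FOG2 overexpression atria (FOG2_OE) and 3 from wild type atria (WT). FOG2 is encoded by Zfpm2. Both groups had been without doxycycline for 1 week, and the promoter and cell type that drive the overexpression are not given in the sources used here. Ribosomal and polyadenylated RNA had been depleted, so that most mature mRNA, including that of Nppa and Nppb, was not the target of these libraries.

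Nppa encodes atrial natriuretic peptide (ANP) and Nppb encodes brain natriuretic peptide (BNP), hormones that heart muscle releases when it is stretched. Both bind the guanylyl cyclase receptor encoded by Npr1, raise cyclic GMP, and promote sodium excretion and vessel relaxation. Nppa is made chiefly in the atria of the adult heart, and both genes belong to the fetal gene programme that returns in heart failure. Their promoters are bound by GATA4, TBX5 and NKX2-5, and FOG2 is a cofactor that binds GATA factors and can repress GATA4 activity.

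The proximal promoters are shown because these are the regulatory sequences of the 2 genes and known targets of GATA4 and TBX5, and because the left end of MSTRG.62120 lies beside the Nppb GATA matches. Capitals mark the letters GATA, the T-box letters GGTGTG and the homeobox letters AAGTG, each on either strand, read 5′ to 3′ on the plus strand of GRCm38.p6 (RefSeq promoter table).
Nppa promoter, chr4:148000472-148000721: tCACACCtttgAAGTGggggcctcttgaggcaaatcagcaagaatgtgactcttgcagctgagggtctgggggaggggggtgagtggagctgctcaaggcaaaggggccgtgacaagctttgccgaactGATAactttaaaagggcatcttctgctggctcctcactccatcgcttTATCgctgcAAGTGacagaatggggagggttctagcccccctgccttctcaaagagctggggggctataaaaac
Nppb promoter, chr4:147985650-147985787: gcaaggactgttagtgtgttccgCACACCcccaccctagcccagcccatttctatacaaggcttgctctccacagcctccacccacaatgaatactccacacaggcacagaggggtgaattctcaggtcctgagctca
Nppb GATA pair, chr4:147985798-147985827: atgcagctGATAaatcagaGATAaccccac

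In the 250 bases before the RefSeq start, Nppa held 2 GATA, 1 T-box and 2 homeobox matches, and Nppb held 2 GATA, 1 T-box and 0 homeobox matches. No 2 of these matches overlapped. Such short letters are common: among 32851 promoters of this length, 53.6% held GATA, 16.3% the T-box letters, 40.7% the homeobox letters, and 3.64% all 3 kinds. For the CArG letters of the serum response factor, only 1 exact form of 10 letters was searched. That form was in 0.0609% of promoters and in neither of these windows. Other forms of the CArG letters were not searched, so their presence in these windows was not tested. The Nppb start is 147985900 in RefSeq and 147985788 in GENCODE, 112 bases apart, so that the pair of GATA matches lies before the RefSeq start and 18 to 32 bases inside the GENCODE body. This pair, from 147985806 to 147985820, lay in the 285 bases between MSTRG.62083 and MSTRG.62120, features listed on the minus strand. The listed features therefore left this pair uncovered.

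The Nppb body runs from 147985788 to 147987205 and the Nppa body from 148000722 to 148002079, both on the plus strand, with 13.5 kb between them. Of the 17 features, 8 lay upstream of Nppb, 1 overlapped Nppb and 8 lay between Nppb and Nppa. None overlapped Nppa, none lay past its end, and none overlapped its annotated antisense RNA Gm13054. The feature over Nppb, MSTRG.62120, is listed on the minus strand, opposite to the gene, and no feature was listed over either body on the strand of the gene. No other feature overlapped an annotated gene. The features were 136 to 2549 bases long (median 626, against 238 for all features), and 12 of the 17 reached a mean fitted value of 10 counts per library. In all, 4 were listed on the plus strand and 13 on the minus strand.

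**Figure D1:**
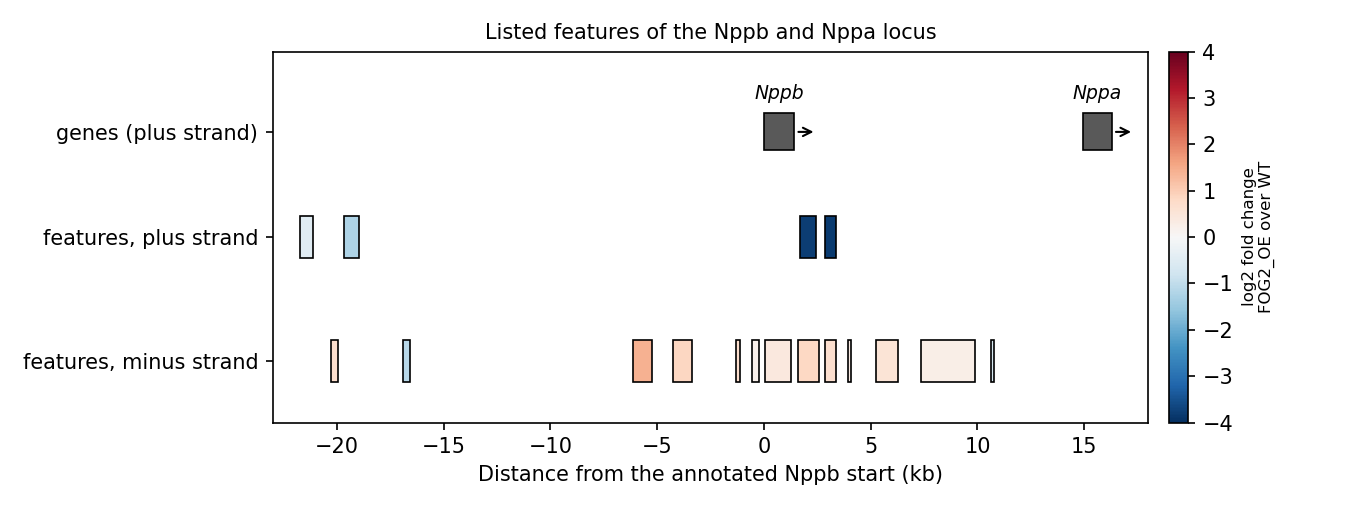
Features of the Nppb and Nppa locus along the chromosome, in kb from the annotated Nppb start, coloured by the log2 fold change of FOG2_OE over WT in the authors' deposited table. The 2 dark blue features past the end of Nppb, on the plus strand, have values of -3.78 and -3.83, and 11 of the 13 minus-strand features stand above 0.

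The 6 sample columns of the table held fitted values of the authors' model: within a group they differed between libraries by the library size alone. They therefore hold no replicate spread, and each group has 1 fitted level per feature. Levels are given in CPM, the fitted counts scaled to the effective library, which was 72448250 to 84888504 reads in FOG2_OE and 71164892 to 82233279 in WT. The error given for a fold change is a standard error solved from the likelihood ratio of the authors' test. As a check of the group labels, MSTRG.29831 inside Zfpm2 stood at 416 CPM in FOG2_OE, against 0.484 CPM in WT. MSTRG.29831 is listed on the minus strand, opposite to Zfpm2, so that a listed strand need not be that of the RNA. The authors' deposited table as a whole had a median log2 fold change of -0.21, so that a value near 0 lies slightly above the bulk of the table. Sums over a bulk tissue do not tell fewer cells of a type from less RNA per cell.

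Directly past the end of Nppb, 2 features listed on the strand of the gene were far lower with FOG2 overexpression, while the other 15 features of the locus did not pass the test. MSTRG.62122 begins 285 bases past the annotated end of Nppb and spans 147987491 to 147988220 (730 bases). Its fitted counts were 22.8, 20.8 and 24.3 in FOG2_OE replicates 1 to 3, against 282, 311 and 326 in WT replicates 1 to 3. The groups were far apart, and the differences within a group reflect library size only. The level was 13.8-fold lower in FOG2_OE, a log2 fold change of -3.78 with an implied SE of 0.44. The authors' deposited table gives it an adjusted p of 4.2e-13 (edgeR likelihood ratio test, Benjamini-Hochberg over all features). The second, MSTRG.62113, follows after 416 bases and spans 147988637 to 147989168 (532 bases). Its fitted counts were 1.66, 1.51 and 1.77 in FOG2_OE replicates 1 to 3, against 22.6, 24.9 and 26.1 in WT replicates 1 to 3. The authors' deposited table gives it a log2 fold change of -3.83, with an implied SE of 0.86 and adjusted p = 6.0e-05 (edgeR likelihood ratio test). With about 5 fitted counts over the 3 FOG2_OE libraries, the size of this change is imprecise. The 2 lie close together on the same listed strand, and it was not tested if 1 transcript gave both.

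In the authors' deposited table, 2 of the 17 features fell and 0 rose at an adjusted p under 0.05 (11.8% lower), beside 4.65% of all features called lower and 1.16% called higher. With 17 features, 2 calls are a small count, and they may be a single observation. At an unadjusted p under 0.05 there were 4 of the 17, beside 12.5% of all features lower and 4.52% higher. The likelihood ratios were also referred to an F distribution of 10 degrees of freedom, a chosen setting and not that of the design. Both calls remained, beside 1.07% of all features lower and 0.203% higher. The adjusted p was 0.0067 for MSTRG.62122 and 0.0475, close to the limit, for MSTRG.62113 (edgeR likelihood ratio). With 4 residual degrees of freedom, those of 6 libraries in 2 groups, neither passed, and no feature of the table did (0.0% in either direction). Both calls also remained with the median ratio centred at 1 (3.47% of all features lower, 1.62% higher) and among features of at least 10 fitted counts (6.91% lower, 1.72% higher). By listed strand, 2 of the 4 plus-strand features were called lower, beside 4.75% of all plus-strand features (1.13% higher). None of the 13 minus-strand features was called, beside 4.55% lower and 1.2% higher among all minus-strand features.

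**Figure D2:**
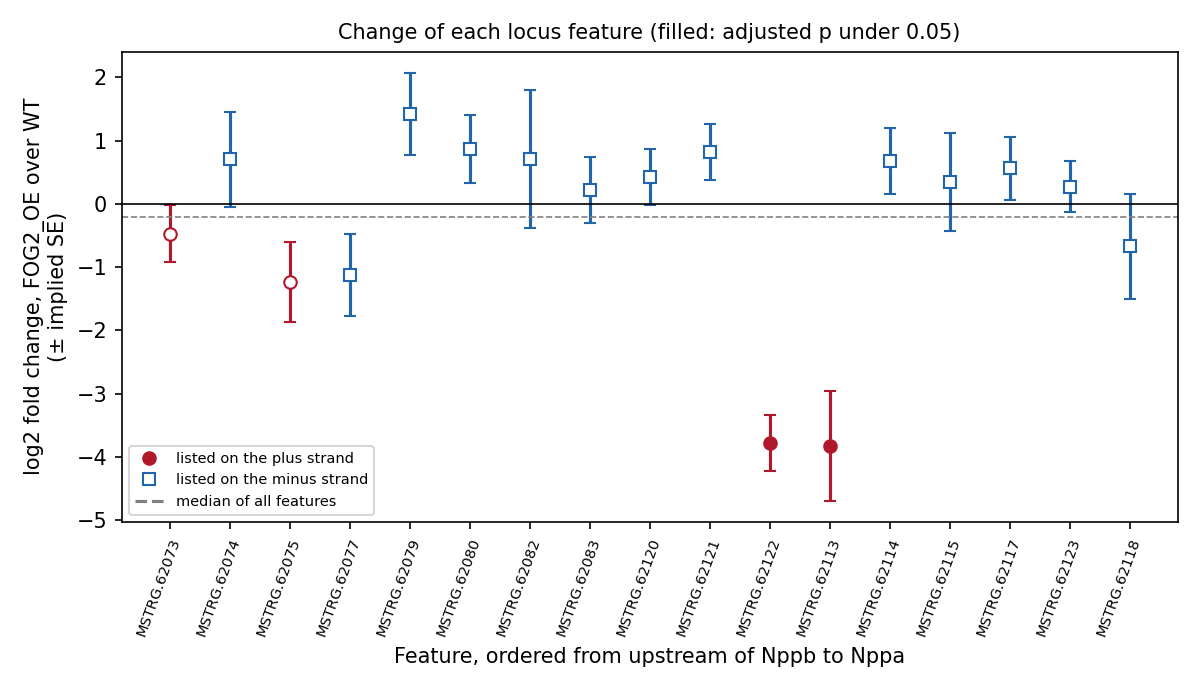
Log2 fold change of FOG2_OE over WT for the 17 features in order of position, with the implied standard error as bars. Circles are plus-strand features and squares minus-strand features, filled where the adjusted p is under 0.05. MSTRG.62122 and MSTRG.62113 stand below -3, and the other features lie between -1.24 and 1.42.

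Among the 17 features, MSTRG.62122 had the highest level per length in WT and an ordinary one in FOG2_OE. It was at 0.392 CPM per kb in FOG2_OE, the ninth highest of the 17, and at 5.43 CPM per kb in WT. The medians of the 17 features were 0.392 CPM per kb in FOG2_OE and 0.408 CPM per kb in WT. MSTRG.62113 was at 0.0392 CPM per kb in FOG2_OE, the lowest of the 17, and at 0.596 CPM per kb in WT. Together the 2 made up 6.05% of the summed fitted level of the locus in FOG2_OE and 51.4% in WT. The sum over all 17 features was 5.08 CPM in FOG2_OE, against 8.33 CPM in WT, a ratio of 0.610 with an implied error of 0.077 that takes the features as independent. Without the 2 called features the sum was 4.77 CPM in FOG2_OE, against 4.05 CPM in WT, a ratio of 1.18. The lower sum in FOG2_OE therefore rested on MSTRG.62122 and MSTRG.62113.

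**Figure D3:**
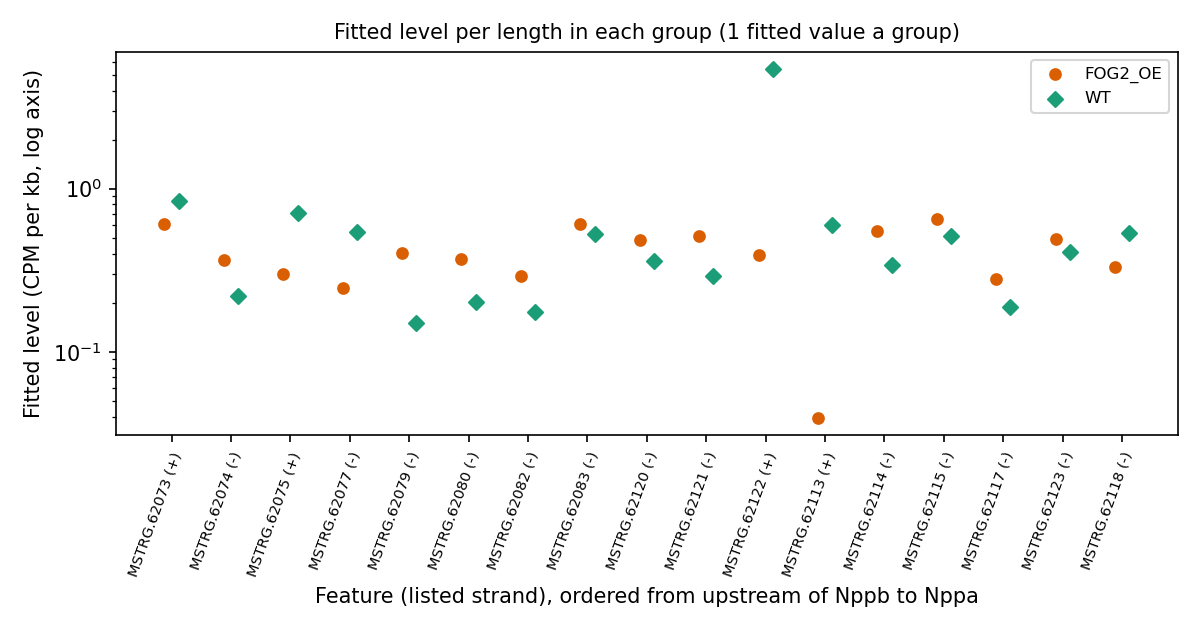
Fitted level per kb of feature length in FOG2_OE (circles) and WT (diamonds) on a log axis, 1 fitted value per group and feature, with the listed strand in brackets. In WT, MSTRG.62122 stands above all others at 5.43 CPM per kb, and in FOG2_OE it lies among them at 0.392 CPM per kb.

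The fall was seen on 1 listed strand over bases that features of the other strand also cover. MSTRG.62121, on the minus strand, covers all 730 bases of MSTRG.62122. Its fitted level was 0.4998 CPM in FOG2_OE, against 0.282 CPM in WT, and its log2 fold change of 0.82 (implied SE 0.44) did not pass (adjusted p = 0.32 in the authors' deposited table, edgeR likelihood ratio test). The level of MSTRG.62122 over that of MSTRG.62121 was 0.573 in FOG2_OE and 14.0 in WT. In the same way MSTRG.62114 lies wholly within MSTRG.62113, with 493 shared bases, and stood at 0.270 CPM in FOG2_OE, against 0.168 CPM in WT (0.68 ± 0.52 implied SE on the log2 fold scale; adjusted p = 0.55 by the authors' deposited table, edgeR likelihood ratio test). The ratio of MSTRG.62113 to MSTRG.62114 was 0.0772 in FOG2_OE and 1.88 in WT. Strand is not marked by the library kit that the labels name, and how reads were assigned to a strand is not given in the sources used here. The strands are those listed by the authors, and the pairs show unequal values over shared bases, not a measured strand.

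Pairs this far apart were few in the table, but both pairs here were looked at because their plus-strand features fell. A large difference was thus set in part by that choice. Of 617 pairs of features on opposite strands that share at least 50% of the shorter one, 8 differed in log2 fold change by as much as MSTRG.62122 and MSTRG.62121 (a difference of -4.60), that pair included. A difference as large as that of MSTRG.62113 and MSTRG.62114 (-4.51) was found in 10 pairs. Opposite signs as such were common, in 295 of the 617 pairs (47.8%). Some features are in more than 1 pair, also among the 8, so that the pairs are not separate observations. Of 37 pairs in which at least 1 feature was called lower in the authors' deposited table, 12 had the partner above 0 and 7 had both called lower. The difference within a pair was not tested, since the libraries are shared and their spread is not in the table.

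**Figure D4:**
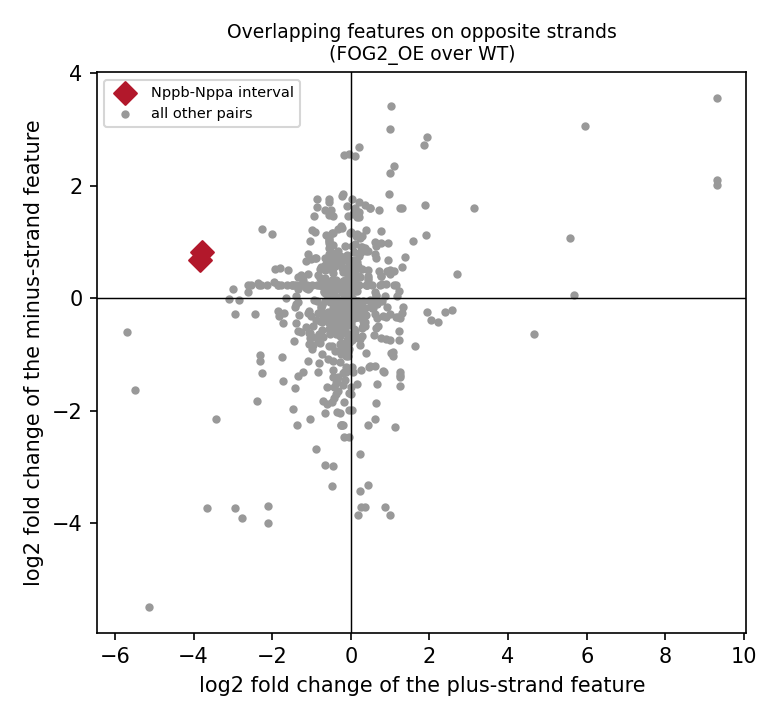
Log2 fold change of FOG2_OE over WT for the plus-strand feature (horizontal axis) and the minus-strand feature (vertical axis) of 617 overlapping pairs, with the 2 pairs between Nppb and Nppa as diamonds. Both diamonds lie left of -3 and above 0, away from most pairs.

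MSTRG.62122 and MSTRG.62113 were among the features with the lowest values just past the end of a gene on its strand. In all, 6689 features lay within 5 kb past the end of a protein-coding gene on its strand. The authors' deposited table calls 135 of them lower (2.02%) and 32 higher (0.478%), and their median log2 fold change was -0.21. MSTRG.62113 and MSTRG.62122 had the 24th and 26th lowest log2 fold change of this class. Both were looked at because they fell, so that a low rank was set by that choice. Of 1874 features within 5 kb past a gene end on the opposite strand, 2.77% were called lower and 0.32% higher. Within the whole table, 1.82% of features had a log2 fold change at or below that of MSTRG.62122, and 2.87% had a WT level at least as high. By p-value it was number 46 of the 1605 lower calls of the authors' deposited table, and 12 lower calls, itself included, had both a WT level at least as high and a log2 fold change at least as low.

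The 13 minus-strand features formed an interrupted row from 20.3 kb upstream of Nppb to 4.16 kb before the Nppa start, and none was called in the authors' deposited table. Their gaps ran from 0.285 to 10.5 kb (median 0.847 kb), and they covered 9.50 kb. The log2 fold change was above 0 in 11 of the 13 and ranged from -1.12 to 1.42, with a median of 0.56. Across the table the median of minus-strand features was -0.21, and 60.01% of them lay below 0. Summed, the 13 stood at 4.18 CPM in FOG2_OE, against 3.02 CPM in WT, a ratio of 1.38. Neighbours in such a row may share a transcript and cannot be counted as separate observations, and with adjusted p-values of 0.21 and above none of them is shown to differ between the groups.

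The largest value in the row belonged to MSTRG.62079 (147979650 to 147980562), which lies 5.23 kb upstream of the Nppb start. It stood at 0.370 CPM in FOG2_OE, against 0.137 CPM in WT, with a log2 fold change of 1.42 (implied SE 0.65). It was the 1 minus-strand feature with an unadjusted p under 0.05 (0.028), and the authors' deposited table gives adjusted p = 0.21 (edgeR likelihood ratio test). MSTRG.62080, 3.36 kb upstream, stood at 0.338 CPM in FOG2_OE, against 0.185 CPM in WT (0.87 ± 0.53 implied SE on the log2 fold scale). Nearest to the Nppb start, MSTRG.62083 ended 251 bases before it and stood at 0.196 CPM in FOG2_OE, against 0.169 CPM in WT (0.21 ± 0.53 implied SE on the log2 fold scale). MSTRG.62120, which covers most of the Nppb body from the other strand, stood at 0.586 CPM in FOG2_OE, against 0.437 CPM in WT (0.42 ± 0.45 implied SE on the log2 fold scale). The row thus held values above 0 on both sides of the Nppb start, none of them past the test.

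Nearest to Nppa were MSTRG.62123 and MSTRG.62118. MSTRG.62123 (147993136 to 147995684) was the longest feature of the locus and the one with the highest fitted level in FOG2_OE. It stood at 1.25 CPM in FOG2_OE, against 1.04 CPM in WT, and the authors' deposited table gives a log2 fold change of 0.27, with implied SE 0.40 and adjusted p = 0.80 (edgeR likelihood ratio test). MSTRG.62118, 4.16 kb before the Nppa start, stood at 0.0459 CPM in FOG2_OE, against 0.0741 CPM in WT (-0.67 ± 0.83 implied SE on the log2 fold scale). No feature near Nppa was thus called, and past its end the next feature, MSTRG.62134 over Mad2l2, began 143 kb away.

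The upstream end of the locus held the other 2 plus-strand features. MSTRG.62073, 21.1 kb upstream of Nppb, stood at 0.380 CPM in FOG2_OE, against 0.528 CPM in WT (-0.47 ± 0.44 implied SE on the log2 fold scale). MSTRG.62075, 19.0 kb upstream, stood at 0.209 CPM in FOG2_OE, against 0.496 CPM in WT (-1.24 ± 0.63 implied SE on the log2 fold scale; adjusted p = 0.29 by the authors' deposited table, edgeR likelihood ratio test). Among minus-strand features there, MSTRG.62077 had the lowest log2 fold change of its strand, -1.12 (implied SE 0.64). MSTRG.62073 was also the first feature inside the boundary to the neighbour gene 2510039O18Rik, whose start lies 23.2 kb away from it. Just outside, MSTRG.62066 lay 22.2 kb from that start and 22.3 kb from Nppb, with a log2 fold change of -1.27 (implied SE 0.45).

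Plus-strand features beyond the locus, towards Mfn2, also had values below 0. From 2 kb past the end of Mfn2, a minus-strand gene, to the locus, 14 features were listed, 9 on the plus and 5 on the minus strand. All 9 plus-strand features lay below 0, from -3.20 to -0.75, with a median of -1.95, and 3 were called lower (beside 4.75% of all plus-strand features). The 5 minus-strand features had a median of -0.60, and 1 was called lower, in the authors' deposited table. Summed, the 9 stood at 0.775 CPM in FOG2_OE, against 2.74 CPM in WT. The called ones were MSTRG.62085 and MSTRG.62086 at the start of Mfn2, which encodes mitofusin 2, a protein of mitochondrial fusion, with log2 fold changes of -1.96 (implied SE 0.48) and -2.29 (implied SE 0.66). The others were MSTRG.62072 inside Plod1, which encodes a collagen lysyl hydroxylase (-2.19, implied SE 0.63), and MSTRG.62015 on the minus strand (-1.30, implied SE 0.43), all in the authors' deposited table. Among all plus-strand features, 61.2% lay below 0. A list of 17 neighbour gene symbols, 16 of them in the annotation, had 22 features at 6 genes. The authors' deposited table calls 3 of the 22 lower (13.6%) and 0 higher, beside 4.65% and 1.16% of all features. The 3 are the calls at Mfn2 and Plod1 already named, and 6 of the 22 features lay near Tnfrsf8, far from the locus (145404369 to 145412788). None of the calls at Mfn2 and Plod1 passed with an F distribution of 10 degrees of freedom. Their adjusted p was 0.107 to 0.166 (edgeR likelihood ratio). MSTRG.62015 also did not pass there (adjusted p = 0.235, edgeR likelihood ratio). It did not pass with the median ratio centred at 1 either (adjusted p = 0.137, likelihood ratio recomputed from the fitted values).

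**Figure D5:**
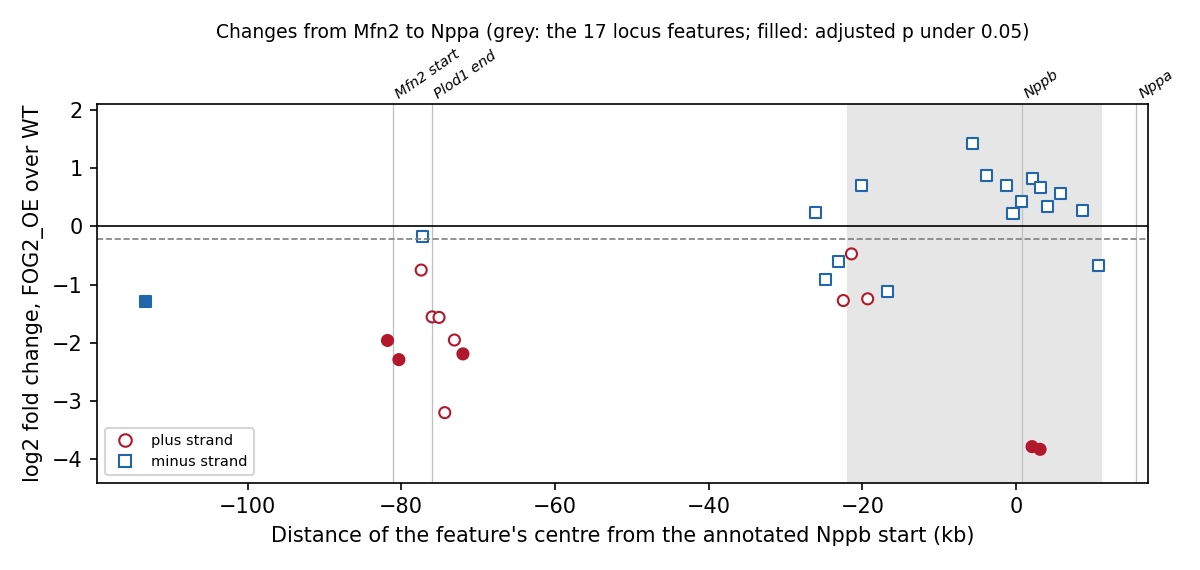
Log2 fold change of FOG2_OE over WT against the distance of each feature's centre from the annotated Nppb start, from Mfn2 to Nppa. The grey band holds the 17 locus features, circles are plus-strand and squares minus-strand features, and filled points have an adjusted p under 0.05. All plus-strand circles lie below 0, and the 2 lowest are MSTRG.62122 and MSTRG.62113.

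Features at other genes of natriuretic peptide and cyclic GMP signalling were mostly uncalled, apart from 1 gene. Of 19 genes listed, 12 had features, 103 in all, of which 20 were called lower (19.4%) and none higher by the authors' deposited table. Gucy1a1, a subunit of the soluble guanylyl cyclase that answers to nitric oxide, held 18 of these calls among its 37 features. All 18 were listed on the plus strand, 2 in the gene body and 16 beside it up to 72.9 kb from its start, and the 37 features summed to 2.38 CPM in FOG2_OE, against 10.1 CPM in WT. They are neighbours and cannot be taken as separate observations. With an F distribution of 10 degrees of freedom, 2 of the 18 passed. Without Gucy1a1, 2 of 66 features were called lower (3.03%), near the 4.65% of the table.

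The 2 remaining calls were MSTRG.29174 near Npr3, which encodes the natriuretic peptide clearance receptor (log2 fold change -2.97, implied SE 1.103, in the authors' deposited table), and MSTRG.72922 near the phosphodiesterase gene Pde3a (-3.78, implied SE 1.64, in the authors' deposited table). Both are scarce: MSTRG.29174 stood at 0.0126 CPM in FOG2_OE, against 0.110 CPM in WT, and MSTRG.72922 at 0.0042 CPM in FOG2_OE, against 0.0786 CPM in WT. Neither passed with the F distribution of 10 degrees of freedom (adjusted p = 0.224 and 0.199, edgeR likelihood ratio). At Corin, whose protease converts pro-ANP to ANP, 8 features summed to 0.511 CPM in FOG2_OE, against 0.882 CPM in WT with none called. Furin (3 features), Npr1 (1), Nppc (1), Pcsk6 (1), Pde5a (1), Prkg1 (5) and Gucy1b1 (3) likewise had none called. The most abundant feature of the list was MSTRG.43470 near Ide, which encodes the insulin-degrading enzyme, at 15.6 CPM in FOG2_OE, against 19.3 CPM in WT (-0.31 ± 0.23 implied SE on the log2 fold scale).

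Features at other genes of the fetal and stress programme were called at 1 gene. The list of 17 genes had 61 features, of which the authors' deposited table calls 7 lower (11.5%) and none higher, the pair past Nppb included, beside 4.65% of all features lower and 1.16% higher. Apart from Nppa and Nppb, the list had 44 features, and the 5 that the authors' deposited table calls lower all belonged to the calcium pump gene Atp2a2, whose 15 features summed to 14.6 CPM in FOG2_OE, against 32.4 CPM in WT. None of these 5 passed with the F distribution of 10 degrees of freedom (adjusted p of 0.058 to 0.237, edgeR likelihood ratio). With the median ratio centred at 1, 3 of the 5 did not pass. Leaving out Atp2a2 as well, 29 features of 9 genes had no call and a median log2 fold change of 0.12, with sums of 13.3 CPM in FOG2_OE, against 11.6 CPM in WT. They included 3 features at the beta myosin gene Myh7, 7 at the cardiac actin gene Actc1, 4 at Ankrd1 and 5 at Xirp2. With the median ratio centred at 1, 1 of them, MSTRG.48041 at Actc1, passed as higher (adjusted p = 0.0392, likelihood ratio recomputed from the fitted values).

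Features linked to markers of cell types were compared beside these results. Of the atrial muscle markers, 9 of 10 had a feature (all but Bmp10; Nppa is one), 65 in all, summing to 18.3 CPM in FOG2_OE, against 45.6 CPM in WT, with 19 called lower in the authors' deposited table (29.2%, beside 4.65% of all features). With the F distribution of 10 degrees of freedom, 5 of the atrial features were called lower. The markers differed: 9 of the calls were at the potassium channel gene Kcnj3 (3.29 CPM in FOG2_OE, against 15.5 CPM in WT). Of the other calls, 3 were at Myl7, 3 at Sln, 2 at Clu, 1 at Dkk3 and 1 at Fgf12. Kcna5, with 22 of the 65 features, had none (2.30 CPM in FOG2_OE, against 1.25 CPM in WT), nor had Nppa or Myl4 (2.94 CPM in FOG2_OE, against 2.60 CPM in WT, for Myl4). The ventricular markers Myl2, Irx4 and Hey2 had no feature. Fibroblast markers had 34 features with no call and sums of 14.0 CPM in FOG2_OE, against 13.9 CPM in WT. Endothelial markers had 22 features, 1 called lower, and sums of 12.6 CPM in FOG2_OE, against 14.97 CPM in WT. Npr3 alone held 10 of these, the call, and 11.1 CPM in FOG2_OE, against 13.8 CPM in WT, whereas Pecam1 stood at 1.11 CPM in FOG2_OE, against 0.690 CPM in WT, and Cdh5 at 0.245 CPM in FOG2_OE, against 0.193 CPM in WT. Kdr, with 4 features, was lower, at 0.136 CPM in FOG2_OE, against 0.280 CPM in WT. Smooth muscle and pericyte markers had 4 (0.458 CPM in FOG2_OE, against 0.248 CPM in WT, 1 called higher), macrophage markers 2 (0.103 CPM in FOG2_OE, against 0.135 CPM in WT) and epicardial markers 3 (6.33 CPM in FOG2_OE, against 5.87 CPM in WT), neither with a call. The higher call was the 1 feature at Acta2 (0.221 CPM in FOG2_OE, against 0.00433 CPM in WT). Rgs5 was also higher (0.0817 CPM in FOG2_OE, against 0.0480 CPM in WT), and Myh11 was lower (0.155 CPM in FOG2_OE, against 0.196 CPM in WT). Ventricular markers in all had 10 features, with no call and 1.08 CPM in FOG2_OE, against 1.22 CPM in WT. These are noncoding features at marker genes, not their mRNA, and their part in the fall past Nppb was not tested.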

How the data were processed

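The files hold 1 table of a noncoding RNA-seq comparison of FOG2_OE with WT left atria (3 libraries each, grouped by title). STAR, edgeR, deepTools, HTSeq 0.6.0 and mm10 are named, without roles, per the submitters' processing notes. Per the file headers, the authors deposited for each feature log2 values (fold change and CPM), the score of a likelihood ratio test, and its p-value before and after adjustment. The 6 sample columns hold the authors' deposited values, each an expected count per feature made by a model fit: within a group they are constant multiples of each other (largest relative spread 1.8e-14), so they are fitted values, and no count test, left-out library or replicate block could be run. The labels do not say whether libraries share litters, and p-values measure only the spread between these libraries.

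Effective library sizes came from 788 features above 300 mean fitted counts in both groups. The negative binomial dispersion of each feature was solved from its likelihood ratio (where this was 0.1 or more, otherwise taken from features of like abundance). It gave the implied standard errors and the calls with the median ratio centred at 1. The solver was tested on simulated data. Floors (3 counts over a group) and fitted counts cover counting error only. Positions count from 1. Gene links used GENCODE M21, and sequences came from RefSeq (GRCm38.p6). Named features were those called, the 5 most abundant, the 3 highest and 3 lowest, and those at either start. Members and lists (11) were chosen with earlier results of these data known. Scripts ran under Python 3.11.15 with pandas 2.3.3, scipy 1.17.1 and numpy 2.4.6.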

Additional observations from a re-analysis of the deposited data

How the results depend on the processing

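With the median ratio centred at 1, no locus feature changed the sign of its log2 fold change. Both lower calls remained there and with an F distribution of 10 degrees of freedom. They also remained when p-values were adjusted over the 13643 features of at least 10 fitted counts (12 of the 17 tested there). With 4 residual degrees of freedom 0 lower calls remained, and 0 features of the whole table passed (4319 lower and 1561 higher at an unadjusted p under 0.05). Windows of 50 and 200 kb gave the same 17 features. Overlap with a gene body left 1 feature, MSTRG.62120, with 0 calls and a level ratio of 1.34, which reverses the direction of the summed ratio because both called features are left out. Keeping the most abundant of overlapping features gave a summed ratio of 0.590, and centring gave 0.708. Centring also moved the fetal and stress list to 1 higher and 4 lower calls, from 0 and 7, and the pathway, regulator and neighbour lists stayed within 1.5 times their counts. For the lists, the F distribution of 10 degrees of freedom was an alternative chosen after seeing the data. Lower calls there numbered 2 of 20 in the pathway list, 2 of 7 in the fetal and stress list and 0 of 3 in the neighbour list. In the regulator list, 1 of 12 lower and 1 of 3 higher calls passed there. Among marker lists, tried after seeing the data too, the atrial list had 5 lower calls there, and 14 lower and 1 higher when centred, against 19 and 0, and the endothelial call was lost in both. No paired analysis was possible because the sample columns hold fitted values, and leaving out a replicate or running quasi-likelihood or DESeq2 tests was not run for the same reason. Depth limits the scarce features: the implied SE reached 1.095 among uncalled features of the locus.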

Other observations

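Noncoding features at genes of the cardiac transcription factors that act on the Nppa and Nppb promoters were for the most part uncalled. The list of 16 genes had 160 features. The authors' deposited table calls 3 of them higher (1.875%) and 12 lower (7.5%), beside 1.16% and 4.65% of all features. Of these calls, 7 of the lower ones and 1 of the higher ones were at Zfpm2. Apart from Zfpm2 itself, 144 features were listed for 13 of 15 such genes. The authors' deposited table calls 2 of the 144 higher and 5 lower (3.47% lower), beside 1.16% of all features higher and 4.65% lower. At Nkx2-5, which encodes a homeobox factor of heart muscle, 14 features summed to 101 CPM in FOG2_OE, against 102 CPM in WT with none called. At Tbx5, 6 features summed to 0.987 CPM in FOG2_OE, against 0.885 CPM in WT, again with none called.

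At Gata4, whose product FOG2 binds, 6 features summed to 2.89 CPM in FOG2_OE, against 6.87 CPM in WT. The authors' deposited table calls 1 higher (MSTRG.27735) and 2 lower. MSTRG.27735 overlaps the Gata4 body and stood at 0.207 CPM in FOG2_OE, against 0.0216 CPM in WT (3.17 ± 0.83 implied SE on the log2 fold scale). The lower ones, MSTRG.27737 and MSTRG.27739, lay 52.2 and 62.4 kb from the Gata4 start, with log2 fold changes of -1.95 (implied SE 0.52) and -1.24 (implied SE 0.39) in the authors' deposited table. The other higher call was MSTRG.80406 near Hand2, at 0.161 CPM in FOG2_OE and listed at 0 in WT. The remaining lower calls were 2 features near Gata6 and 1 near Tbx20. With the median ratio centred at 1, MSTRG.27739 did not pass (adjusted p = 0.12, likelihood ratio recomputed from the fitted values). Nor did MSTRG.39504 near Gata6 (0.209) and MSTRG.83841 near Tbx20 (0.052) by the same test. With an F distribution of 10 degrees of freedom, none of the 7 calls outside Zfpm2 passed. Their adjusted p was 0.072 to 0.216 (edgeR likelihood ratio).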
